A study of Drosophila melanogaster with 4 samples.

Results

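The genes described here build and run synapses and set the excitability of neurons, and they were chosen by name and function as a list of 40 genes. The choice was made with earlier results of these data known. They were looked up by gene symbol among the 12131 genes that the arrays' annotation names. Of the 40, 31 had values in both biological replicates and were tested, as were 10090 genes in all. A further 2, Shaw and nAChRalpha2, had values in 1 replicate only, and 2, Csp and nAChRbeta2, had a probe without any value. The other 5 (Syt1, Syt4, Syx1A, comt and GluRIIC) were named by no probe in the annotation used and were not analysed here.

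The study asked how gene expression changes in Drosophila melanogaster larvae that lack normal function of trithorax (trx), a trithorax-group histone methyltransferase linked to active transcription. RNA of whole larvae of the third instar with the genotype w1118;+;trxE3/trxB11 was set against a pool of RNA from w1118;+;+ larvae of the isogenic wild-type strain on 2-colour oligonucleotide arrays. Mutant RNA came from 2 extractions, called biological replicates 1 and 2, and each was hybridised on 2 arrays with the dyes exchanged. The mutant was in Cy3 on arrays 1 and 3 and in Cy5 on arrays 2 and 4, with arrays 1 and 2 from replicate 1 and arrays 3 and 4 from replicate 2.

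Both kinds of larvae carried w1118 and were wandering, blue-gut-staged animals grown at 21ºC on bromophenol blue medium, and Tb+ animals were selected, which leaves out larvae with the TM6c balancer. Chromosomes X, Y and 2 of the mutant lines had been brought in from the isogenic strain. Chromosome 3, which carries trx and 21 of the 40 genes, is not listed among those exchanged. For any listed gene, on chromosome 3 or not, an effect of trx and a difference in that background cannot be told apart. The age of the larvae in hours, the number pooled per extraction and whether the extractions came from separate cultures are not given in the study's labels or methods. The p-values rest on the spread between the 2 extractions, which may be technical, drawn toward the typical spread of all genes. They hold nothing of the variation among wild-type larvae, whose RNA was 1 pool.

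Neurons fire when voltage-gated sodium channels open, and potassium channels end the signal. Calcium that enters at active zones makes SNARE proteins fuse vesicles with the membrane, and the released transmitter opens receptors on the next cell. In Drosophila, acetylcholine is the main excitatory transmitter of the central nervous system and GABA the main inhibitory one. At the larval neuromuscular junction the transmitter is glutamate, and its receptors are made by the muscle fibres.

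Each value below is the log2 of the mutant signal over the wild-type signal, so that -1 is a 2-fold lower and 1 a 2-fold higher signal in the mutant. A ratio gives no level, so genes are compared by their change alone, and in RNA of whole larvae fewer cells of a type and less RNA per cell cannot be told apart. The gene ratio is the mean over the 2 replicates, each the mean of its 2 arrays, with its standard error (SE) and adjusted p from limma, adjusted over all genes tested. Because limma draws the spread of each gene toward that of all genes, an SE is not the measured spread alone. A gene is called at an adjusted p under 0.05 with at least a 2-fold change, the thresholds of the study.

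Most synaptic and excitability genes differed little between mutant and wild-type larvae, and the exceptions were a pair of muscle glutamate receptor subunits and the acetylcholine-degrading enzyme. GluRIIA and GluRIIB fell to 52.0% and 60.0% of wild type and Ace to 72.2%. None of the 31 genes tested was called lower, against 2.51% of all genes, and none was called higher, against 1.58% of all genes. At an adjusted p under 0.05 without a minimum fold, 3 of 31 genes were lower (9.68%), against 8.13% of all genes, and 0 were higher, against 6.42% of all genes. At an unadjusted p under 0.05 the limma test gave 13 of 31 genes (41.9%), against 38.1% of all genes. Of the 13, 11 were lower (35.5% of the 31), against 20.7% of all genes lower. With the 4 arrays fitted singly and the extraction as a random block, 10 of the 31 were lower and 2 higher (32.3% and 6.45%), against 21.0% and 18.2% of all genes. That fit counts 4 arrays of the same 2 extractions. It gave more genes lower than arrays taken as fully independent did (8 of 31), so it is no stricter than counting every array.

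The median ratio of the 31 genes was -0.10, with a range of -0.94 to 0.35, and that of all genes tested was -0.02. It was below 0 for 25 of the 31 (80.6%), against 54.1% of all genes. In size, 25 of 31 ratios were under 0.25 in either direction, against 65.1% of all genes, and 2 of 31 were 0.5 or more, against 15.4%. The 95% confidence interval lay within a 2-fold change for 30 of 31 genes (96.8%, against 89.1% of all genes), GluRIIA being the exception, and within 1.5-fold for 28 of 31 (90.3%, against 73.5%). These shares describe the list and were not tested as a set.

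**Figure D1:**
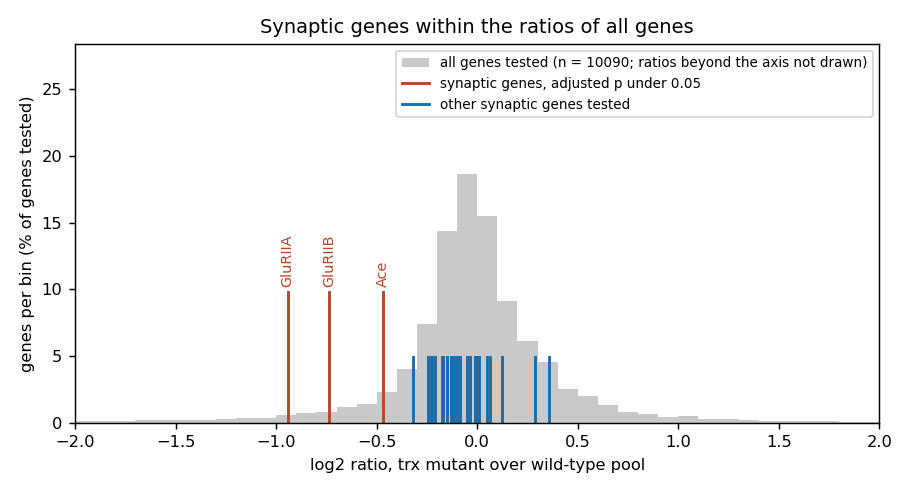
Grey bars give the percentage of the 10090 genes tested in each bin of the mean log2 ratio of trx mutant over wild type (x axis), and the vertical lines mark the 31 synaptic and excitability genes, with line height carrying no value. GluRIIA, GluRIIB and Ace stand on the lower side at -0.94, -0.74 and -0.47, and the other 28 lie between -0.32 and 0.35.

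The replicates gave similar medians over the 31 genes, -0.07 in replicate 1 and -0.14 in replicate 2. For a typical gene of the list they differed by 0.09, close to the 0.10 of a typical gene on the array. Without GluRIIA, GluRIIB and Ace the median was -0.07. Of the 31 genes, 15 had 1 sign on every array with a value, 12 of them below 0 and 3 above, a smaller share than the 62.4% of all genes tested that had 1 sign on every array.

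On chromosome 3, the chromosome of trx, 14 of 16 genes tested were below 0, with a median of -0.12, and 1, Ace, passed the adjusted p. All genes on chromosome 3 had a median of -0.03, with 55.4% below 0 and 9.41% lower and 6.56% higher at an adjusted p under 0.05. On the other chromosomes 11 of 15 were below 0, with a median of -0.05, and 2, the receptor pair, passed. All genes there had a median of -0.01, with 52.1% below 0 and 7.53% lower and 6.62% higher at an adjusted p under 0.05.

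The largest shifts of the list were in receptors for glutamate at the neuromuscular junction. GluRIIA and GluRIIB are alternative subunits of the tetrameric glutamate receptor of larval muscle, and their genes are neighbours on chromosome 2L with 0 coding genes between them in the RefSeq table. GluRIIA had ratios of -0.99, -0.81, -1.21 and -0.77 on arrays 1 to 4. Every array was below 0, the Cy3 arrays more so, and only array 3 lay past 2-fold. Its mean was -0.94 (SE 0.05, n = 2 extractions, limma adjusted p = 0.0217), and the 95% interval ran from -1.12 to -0.77. Without array 4, whose ratio was the smallest in size, GluRIIA passed 2-fold and became the single called gene of the list.

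GluRIIB had ratios of -0.76, -0.69, -0.82 and -0.67 on arrays 1 to 4. All 4 lay close together, and replicates 1 and 2 averaged -0.72 and -0.75. The mean was -0.74 (SE 0.05, n = 2 extractions, limma adjusted p = 0.0233). Both genes kept an adjusted p under 0.05 in all 13 alternative analyses with a test, the highest being 0.0327 for each.

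Each such receptor also needs the shared subunits GluRIIC, GluRIID and GluRIIE, of which GluRIIC was not analysed here. GluRIID was in the wider list of receptors and fell to 44.9% of wild type. Its ratios were -1.15, -1.34, -1.13 and -1.01 on arrays 1 to 4, past 2-fold on each. The mean was -1.16 (SE 0.07, n = 2 extractions, limma adjusted p = 0.0228).

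GluRIIE, named here after its values were seen, ran the other way. It had 0.75, 0.98, 0.32 and 0.45 on arrays 1 to 4, above 0 on each and higher in replicate 1 than in replicate 2. Its mean of 0.63 (SE 0.15, n = 2 extractions) did not pass the test (limma adjusted p = 0.0940). GluRIIE and GluRIID are adjacent on chromosome 3R with overlapping spans in the RefSeq table, and whether the probes are specific to 1 strand or 1 gene there is not known.

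Since these subunits are made by muscle, 12 muscle markers were read beside them. Of these, 7 were tested and 0 passed an adjusted p of 0.05, against 8.13% of all genes lower and 6.42% higher. In the limma test 1 had an unadjusted p under 0.05 (14.3%, against 38.1% of all genes). The median was -0.22 with a range of -0.53 to 0.73. The defining gene Mhc, the muscle myosin heavy chain, was not analysed here. Mp20, a muscle actin-binding protein, had -1.05 and -1.76 on the Cy3 arrays 1 and 3, against 0.54 and 0.13 on the Cy5 arrays 2 and 4. The sign of Mp20 followed the dye, as did that of the myosin light chains Mlc1 and Mlc2, which was not so for any GluRII subunit analysed. Of the other 4 markers, Tm2 and up, a tropomyosin and a troponin T, were above 0 on every array (means 0.46 and 0.73), sls, a titin-like protein, was below 0 on every array (mean -0.26), and bt, twitchin, was above 0 in replicate 1 and below 0 in replicate 2 (mean -0.22). The part of muscle content in the receptor ratios was not tested.

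**Figure D2:**
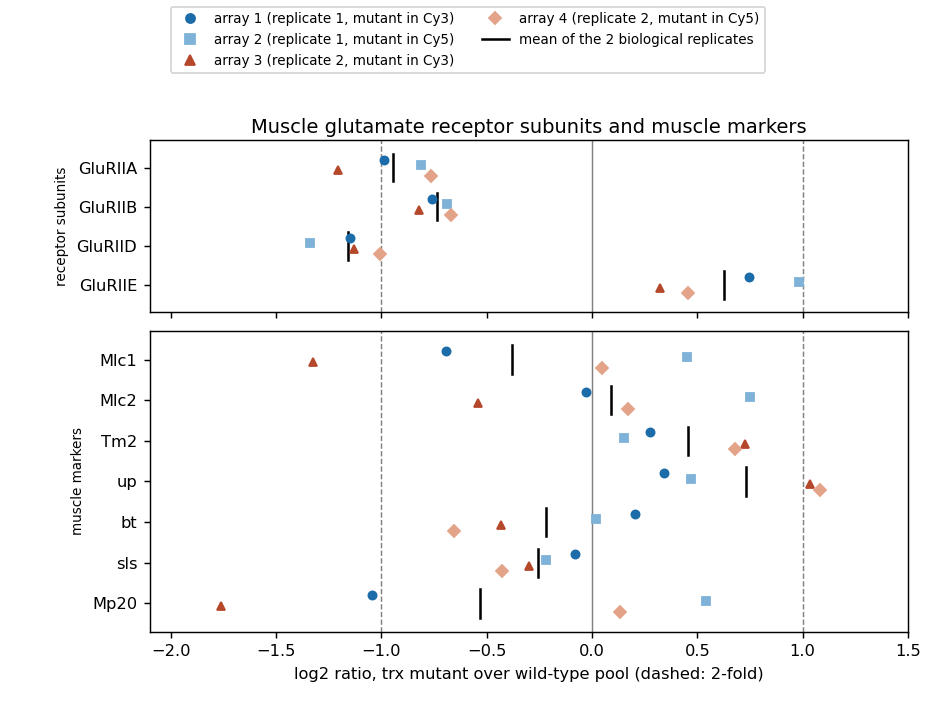
Log2 ratios of trx mutant over wild type on each of the 4 arrays (symbols) with the mean of the 2 replicates (black bar), for muscle glutamate receptor subunits (upper panel) and muscle markers with a value (lower panel). GluRIIA, GluRIIB and GluRIID lie below 0 and GluRIIE above 0 on every array, while Mlc1, Mlc2 and Mp20 change sign with the dye, Tm2 and up lie above 0 and sls below 0 on every array, and bt changes sign between replicates.

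With GluRIIA and GluRIIB included, 7 of the 10 receptors listed were tested, and all 7 were below 0, with a median of -0.12. Below 0 were also 80.6% of the 31 genes and 54.1% of all genes. The other 5 tested bind acetylcholine or GABA and work between neurons. Of these 5, 0 passed the adjusted p, against 8.13% of all genes lower and 6.42% higher. nAChRalpha1, a nicotinic acetylcholine receptor subunit, had -0.18, -0.29, -0.13 and -0.29 on arrays 1 to 4. It was below 0 throughout, with a mean of -0.22 (SE 0.05, n = 2 extractions, limma adjusted p = 0.0810). Rdl, a GABA-gated chloride channel subunit, averaged -0.12 and nAChRalpha3 also averaged -0.12. nAChRbeta1 averaged -0.04 and nAChRalpha5 -0.01, and nAChRalpha2 had a single value of -0.30, on array 3.

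Among genes of transmitter synthesis, breakdown and transport, Ace alone passed the test, 1 of 6 tested (16.7%, against 8.13% of all genes lower). Ace encodes acetylcholinesterase, which ends the cholinergic signal by splitting acetylcholine. Its ratios were -0.36, -0.47, -0.47 and -0.58 on arrays 1 to 4, below 0 on each and within a narrow span. The mean was -0.47 (SE 0.06, n = 2 extractions, limma adjusted p = 0.0433). The adjusted p did not stay under 0.05 without array 2, 3 or 4, where the adjusted p was 0.0547, 0.0506 and 0.0527 at ratios of -0.44, -0.50 and -0.44.

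The genes that make and load acetylcholine had ratios near 0. ChAT, choline acetyltransferase, and VAChT, the vesicular acetylcholine transporter, form 1 locus on chromosome 3R, with VAChT inside the span of ChAT. ChAT had -0.06, 0.01, -0.005 and 0.0075 on arrays 1 to 4, and its 95% interval was -0.17 to 0.15. VAChT had -0.04, 0.03, 0.10 and -0.05, with an interval of -0.15 to 0.17. Both hovered about 0 with mixed signs, and the limma adjusted p was 0.880 for ChAT and 0.913 for VAChT.

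The remaining transporters and enzymes did not pass the test either. Gad1, which makes GABA, averaged -0.13 (limma adjusted p = 0.343), with 0.13 on array 1 and -0.32 on array 4 at its ends. Vmat, the vesicular monoamine transporter, averaged -0.05 (limma adjusted p = 0.682). VGlut, the vesicular glutamate transporter of motor neurons (limma adjusted p = 0.385), was read on the Cy3 arrays only, at 0.06 and 0.07 on arrays 1 and 3, so a dye effect does not cancel in its mean.

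Genes of the vesicle release machinery had a median of -0.0064, with 6 of 8 below 0 (75.0%, against 54.1% of all genes). None passed the adjusted p, against 8.13% of all genes lower and 6.42% higher. Of the 13 listed, 5 were not tested, among them the calcium sensor Syt1 and the SNARE Syx1A. The largest shift was in Syn, synapsin, which tethers reserve vesicles. It had -0.10, -0.49, -0.25 and -0.42 on arrays 1 to 4, with the Cy5 arrays lower than the Cy3 arrays. Its mean of -0.32 (SE 0.05, n = 2 extractions) missed the threshold, at a limma adjusted p of 0.0550, and was at 0.0458 with the test limited to genes read on all 4 arrays.

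unc-13, a factor that primes vesicles for fusion, was on the other side of 0. Its ratios were 0.27, 0.19, 0.29 and 0.39 on arrays 1 to 4, above 0 on every array. The mean was 0.29 (SE 0.06, n = 2 extractions, limma adjusted p = 0.0755). It is the only gene of the list on chromosome 4.

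Rop, a syntaxin-binding protein of the Munc18 family, had -0.13, -0.25, -0.14 and -0.17 on arrays 1 to 4. All were below 0, and the mean was -0.17 (SE 0.05, n = 2 extractions, limma adjusted p = 0.118). Rim, an active zone scaffold, likewise averaged -0.17 (limma adjusted p = 0.115), cpx, the fusion clamp complexin, averaged 0.12 (limma adjusted p = 0.232), and Snap25, a SNARE, averaged -0.0045 (limma adjusted p = 0.955). The 3 probes of Rim differed by at most 0.28 on any array.

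brp, the building block of the active zone cytomatrix, had -0.12, -0.02, 0.11 and -0.0011 on arrays 1 to 4. Its signs were mixed and its 95% interval was -0.21 to 0.19. nSyb, the vesicle SNARE of neurons, had no value on array 1, 0.13 on array 2, and -0.13 and -0.14 on arrays 3 and 4. On array 3 its 2 probes read -0.30 and 0.05, a gap of 0.35. Its replicate 1 rests on the Cy5 array 2 alone, so a dye effect does not cancel there. Replicate 1 was above and replicate 2 below 0, and the interval was -0.31 to 0.31. Neither passed the test (limma adjusted p = 0.930 for brp and 0.991 for nSyb).

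Of the voltage-gated channels, para stood highest of all 31 genes. It encodes the sodium channel that carries the action potential. The ratios were 0.46, 0.16, 0.59 and 0.21 on arrays 1 to 4, above 0 on each and higher on the Cy3 arrays than on the Cy5 arrays. Its mean was 0.35 (SE 0.05, n = 2 extractions), or 128% of wild type, and it narrowly missed the threshold (limma adjusted p = 0.0554). With the arrays centred again on their medians, with the test limited to genes read on all 4 arrays, or without array 2, para had an adjusted p of 0.0482, 0.0463 and 0.0403. Without array 1, 3 or 4 it was 0.152, 0.0845 and 0.0897, and para passed in 6 of 13 alternative analyses and did not in the other 7.

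Potassium channels lay mostly below 0. eag, a voltage-gated potassium channel, had -0.23, -0.19, -0.30 and -0.27 on arrays 1 to 4. The 4 values were below 0 and close together, with a mean of -0.25 (SE 0.05, n = 2 extractions, limma adjusted p = 0.0799). slo, a calcium-activated potassium channel, had -0.19, -0.18, -0.02 and -0.31, below 0 on each array, with a mean of -0.18 (SE 0.05, n = 2 extractions, limma adjusted p = 0.111).

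Shab, a delayed rectifier, was read on the Cy3 arrays 1 and 3 only, at -0.17 and -0.25. Both were below 0, its limma adjusted p was 0.104, and a dye effect does not cancel in its mean. Sh, the A-type channel Shaker, averaged 0.05 with a limma adjusted p of 0.628, and its 3 probes differed by at most 0.28 on any array. Shal averaged -0.09 with a limma adjusted p of 0.417, and Shaw had -0.04 and 0.02 in replicate 2 alone. cac, the calcium channel of active zones, was read on the Cy5 arrays 2 and 4 only, at -0.01 and 0.0082.

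**Figure D3:**
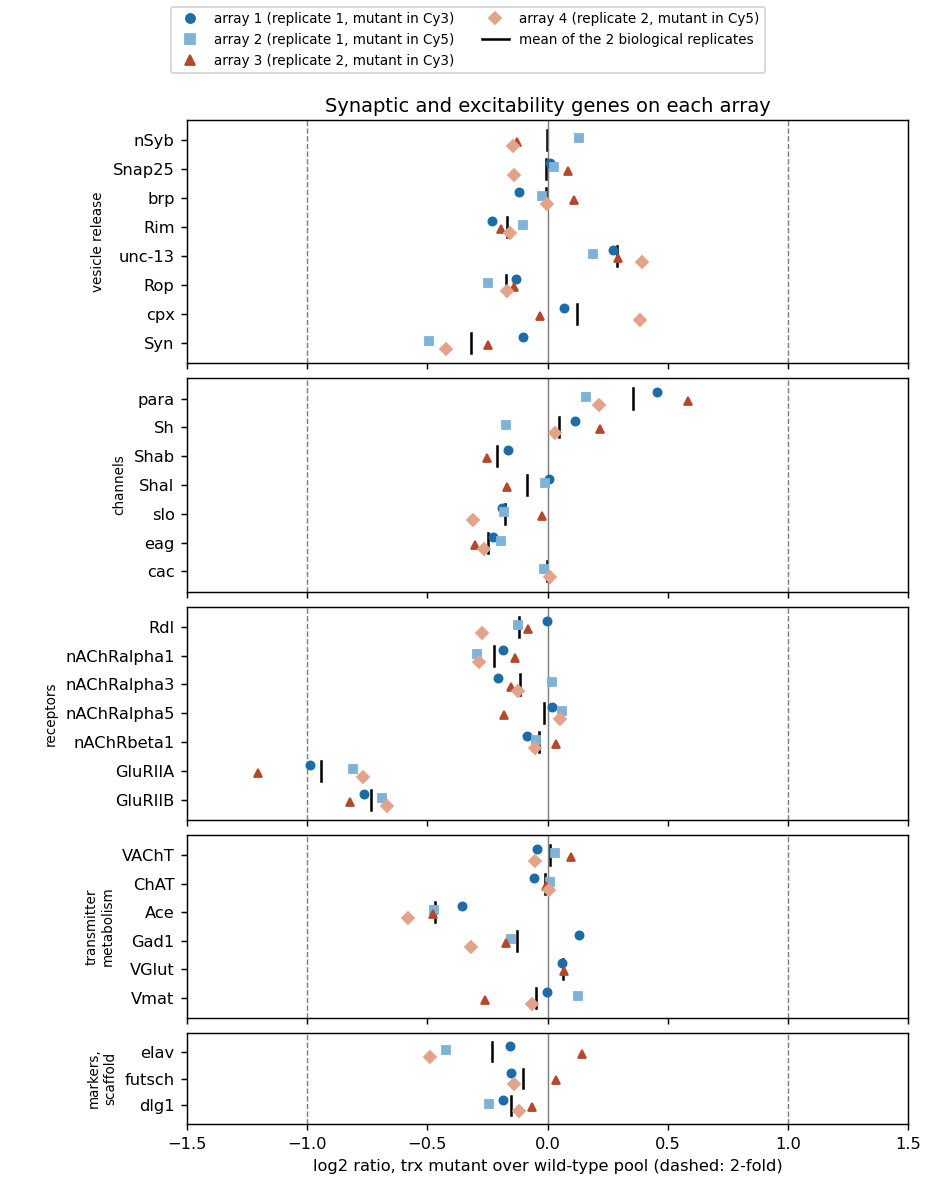
Log2 ratios of trx mutant over wild type on each of the 4 arrays (symbols) and the mean of the 2 replicates (black bar) for the 31 synaptic and excitability genes tested, grouped by role, with dashed lines at a 2-fold change. GluRIIA and GluRIIB are set apart at -0.94 and -0.74, and only 1 value of the panel, GluRIIA on array 3 at -1.21, lies past the dashed lines.

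General neuronal genes bear on whether neuronal RNA as a whole differed between the larvae. elav, an RNA-binding protein of all neurons, had -0.15, -0.42, 0.14 and -0.49 on arrays 1 to 4. The Cy5 arrays 2 and 4 were lower than the Cy3 arrays in both replicates, and array 3 was above 0. Its mean was -0.23 (SE 0.06, n = 2 extractions, limma adjusted p = 0.103), and the difference of 0.45 between the dye orientations is not in that SE. Without array 4 the mean was -0.07 (adjusted p = 0.764), and without array 3 it was -0.39 (adjusted p = 0.0737).

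futsch, a microtubule-associated protein of axons and synapses, had -0.15 on array 1, no value on array 2, and 0.03 and -0.14 on arrays 3 and 4. The signs were mixed, with a mean of -0.10 and a limma adjusted p of 0.279. dlg1, a postsynaptic scaffold protein also made outside the nervous system, averaged -0.15 with a limma adjusted p of 0.184. The neuronal markers elav, nSyb, brp and futsch thus had values on the arrays, and 0 of the 4 passed the adjusted test. Of all genes 8.13% were lower and 6.42% higher, and 4 genes are too few to compare with these shares.

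Small ratios were often no larger than the difference between dye orientations. Over the 28 genes read in both orientations, the typical difference between the Cy3 and Cy5 means was 0.12, against 0.11 over all genes. For 13 of them it was larger in size than the ratio itself, a share that was not counted over all genes. In GluRIIA, GluRIIB and Ace the dye difference was smaller than the ratio, at -0.31, -0.11 and 0.11.

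**Figure D4:**
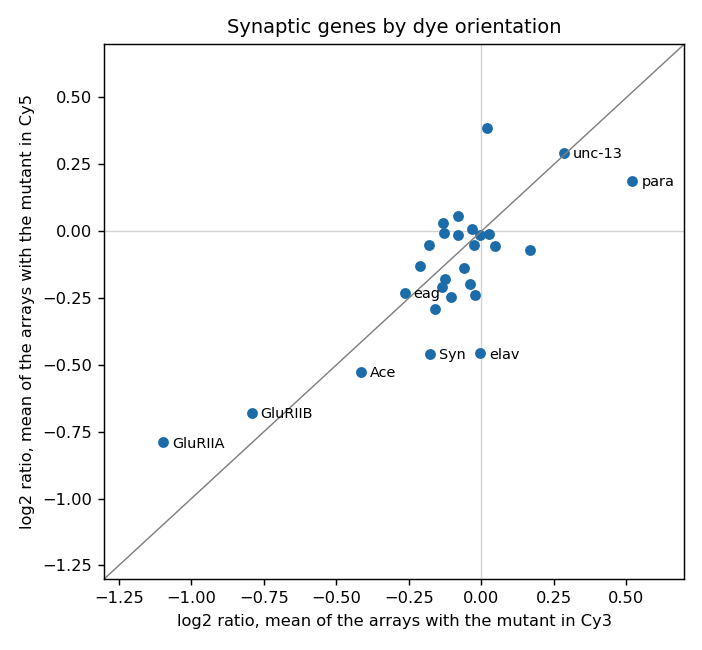
Each point is 1 of the 28 synaptic and excitability genes read in both dye orientations, with the mean log2 ratio of trx mutant over wild type on the arrays with the mutant in Cy3 (x axis) and in Cy5 (y axis), and the line marks equal values. GluRIIA, GluRIIB and Ace lie far below 0 on both axes, para and unc-13 lie above 0 on both, and elav is near 0 in Cy3 and low in Cy5.

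A wider set of 124 neuronal genes, in 5 lists by role, was read in the same fit. Of 88 tested, 8 were lower at an adjusted p under 0.05 (9.09%) and 1 was higher (1.14%), beside the 8.13% and 6.42% of all genes given above. Their median was -0.09, and 61 of 88 were below 0 (69.3%, against 54.1% of all genes). Only GluRIID was called lower (1.14%, against 2.51% of all genes). Only stai, which encodes the microtubule-binding protein stathmin, was called higher (1.14%, against 1.58% of all genes).

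By list, 2 of 20 tested ion channel genes were lower and 0 higher (10.0% and 0.0%, against 8.13% and 6.42% of all genes). Ca-alpha1D, an L-type calcium channel found in larval muscle and neurons, had -0.77, -0.95, -0.84 and -0.93 on arrays 1 to 4. All 4 were below 0, with a mean of -0.87 (SE 0.05, n = 2 extractions, limma adjusted p = 0.0214). Irk2, an inward rectifier potassium channel, averaged -0.44 (limma adjusted p = 0.0379) and its adjusted p was 0.0534, 0.0502 and 0.0524 without array 1, 3 and 4, at ratios of -0.43, -0.39 and -0.49.

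Of 18 receptors tested, 2 were lower and 0 higher (11.1% and 0.0%, against 8.13% and 6.42% of all genes). Beside GluRIID this was Octbeta2R, an octopamine receptor, at -0.47 (limma adjusted p = 0.0347), with -0.46, -0.47, -0.51 and -0.45 on arrays 1 to 4. Of 15 genes of transmitter synthesis and transport, 2 were lower and 0 higher (13.3% and 0.0%, against the same shares of all genes). SerT, the serotonin transporter, averaged -0.46 (limma adjusted p = 0.0359). Tbh, which makes octopamine, averaged -0.41 (limma adjusted p = 0.0466), and its adjusted p was 0.0619 without array 1 and 0.169 without array 4, at ratios of -0.43 and -0.31. Ddc, dopa decarboxylase, named here after its values were seen, had a mean of 1.22 that did not pass (limma adjusted p = 0.150), with 0.63, 0.46 and 1.91 on arrays 1, 2 and 3 and no value on array 4.

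Of 23 vesicle cycle genes, 1 was lower and 0 higher (4.35% and 0.0%, against 8.13% and 6.42% of all genes). This was alphaSnap, a partner of NSF in taking SNARE complexes apart, at -0.55 (limma adjusted p = 0.0474), with an adjusted p of 0.0668 without array 1 and 0.0554 without array 4, at ratios of -0.61 and -0.54. Of 12 genes of adhesion, cytoskeleton and RNA binding, Nrg, the cell adhesion protein neuroglian, was lower at -0.47 (limma adjusted p = 0.0347). stai was the gene that was higher, at 1.42, 1.06 and 1.09 on arrays 1, 2 and 4, with no value on array 3 and a mean of 1.17 (SE 0.06, n = 2 extractions, limma adjusted p = 0.0215). Rbp9, an RNA-binding gene named here after its values were seen, had 0.96, 0.92, 1.84 and 1.81 on arrays 1 to 4. Its mean of 1.38, the highest of the wider lists, did not pass (SE 0.27, n = 2 extractions, limma adjusted p = 0.0731).

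**Figure D5:**
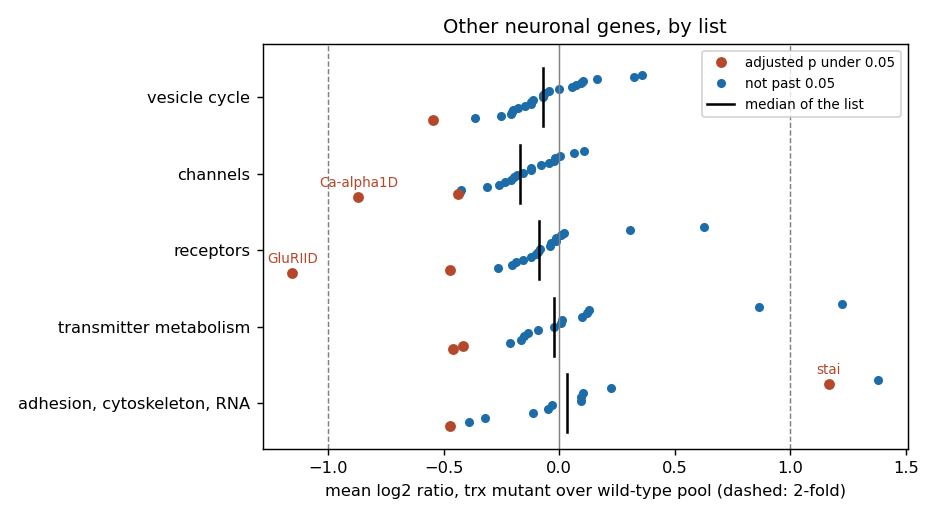
Mean log2 ratio of trx mutant over wild type (x axis) of the wider neuronal genes tested, with 1 row per list, red points for an adjusted p under 0.05 and a black bar at the median of each list. The medians lie between -0.17 and 0.03, and 2 genes past 2-fold on the higher side did not pass the adjusted p.

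Glia, neuroblasts and photoreceptors were read through their markers. Of 12 glial markers 9 were tested. At an adjusted p under 0.05, 0 were lower and 1, loco, was higher (11.1%). Of all genes, 8.13% were lower and 6.42% higher. The ratio of loco was 0.64 (limma adjusted p = 0.0324), and that of the defining glial gene repo was -0.15 (limma adjusted p = 0.140). Of 7 neuroblast markers 5 were tested, with a median of 0.07, and dpn was read on 1 array only. Of the 5, 0 passed the adjusted p or an unadjusted p of 0.05, the latter against 38.1% of all genes. Of 8 photoreceptor markers of the eye disc 5 were tested, all below 0 (against 54.1% of all genes) with a median of -0.11, and gl had no value. Of the 5, 0 passed the adjusted p and 1 had an unadjusted p under 0.05 (20.0%, against 38.1% of all genes).

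Each array had values for between 11199 and 12775 of 16416 probes. The array medians were -0.03 to -0.01, and arrays of 1 replicate correlated at a Pearson r of 0.90 and 0.88 across probes, against 0.71 to 0.82 between replicates. The trx gene itself had 0.22, 0.13 and 0.28 on arrays 2, 3 and 4 and none on array 1, with a mean of 0.21 (SE 0.05, n = 2 extractions, limma adjusted p = 0.0861), and what the trxE3 and trxB11 lesions do to the stretch its probe reads is not stated. Of the 35 listed genes with a probe, 68.6% had a value on all 4 arrays, against 60.0% of all genes.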

How the data were processed

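RNA of whole trx mutant larvae was compared with a wild-type pool on 4 dye-swapped arrays printed with an Operon oligonucleotide set. Per the methods, the authors scanned with GenePix Pro, dropped spots of poor quality, corrected the background with normexp in limma, normalised with OLIN and scaled between arrays. The deposited values are normalised log2 ratios (mutant signal over that of the wild-type pool), 1 per spot, and a dropped spot has no value. Log base and direction were not stated with the values and were taken from the signs of the study's lists of deregulated genes; all 4 arrays run 1 way, since dye-swapped arrays correlated positively.

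Of 16416 probes, 13164 named 1 gene, of which 12569 were matched to RefSeq symbols by Entrez ID or equal symbol and 595 kept the platform symbol; 101 named several or none and 3151 were not listed. Probe values were averaged per gene and array, then over the 2 arrays of an extraction. The 2 extraction means were tested against 0 with limma 3.58.1 (R 4.3.3; lmFit, eBayes) and adjusted by Benjamini-Hochberg over 10090 genes. The test was checked on simulated data drawn with the spread of the fit. The planted changes were larger than any ratio of the list, so the check does not cover changes of the listed size. The number of arrays limits the precision, and the prior SD of 0.0829 carried 1.8 degrees of freedom.

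The genes and lists were chosen with earlier results of these data known. Values on every array are given for genes past the adjusted p, for elav, nSyb, brp and futsch, and for those with the largest ratios of 1 sign on every array, up to 15, with ChAT and VAChT described together; of each wider list, up to 4 genes past the adjusted p are named. Alternatives were the 4 arrays as independent samples, with the extraction as a random block or with a dye term, each array or extraction left out, other probe summaries, scalings and filters, robust moderation and a 1.5-fold minimum. No sequences or coordinates are given.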

Additional observations from a re-analysis of the deposited data

Results flagged for a closer look

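Of 32 named or listed genes with a value on all 4 arrays, 1 had an array far from the others. nAChRalpha5 had -0.18 on array 3, against 0.02, 0.06 and 0.05 on arrays 1, 2 and 4, and the gap took 0.839 of the whole range, over the limit of Dixon's test at the 95% level. Chance gives about 1 such case in 20 groups of 4.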

How the results depend on the processing

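With 2 extractions and 1 wild-type pool, small ratios cannot be separated from 0, and the number of calls followed how arrays were counted. With the 4 arrays as independent samples, the extraction as a random block, or a dye term, 8, 10 and 8 genes of the list were lower (18.9%, 21.0% and 20.0% of all genes) and 2, para and unc-13, were higher under each. The first and last of these take the arrays of 1 extraction as independent. The random block was no stricter, with more of all genes lower than under independent arrays (21.0% against 18.9%). Its nSyb ratio, -0.0539, also lay further from the mean of the extractions, -0.0019, than that of independent arrays, -0.0468. Of all genes, 16.9%, 18.2% and 17.3% were higher. No gene was called higher in any of 13 alternatives. The count called lower ranged from 0 to 1 when an array was left out (1, GluRIIA, without array 4, where 2.82% of all genes were called lower) and was 2 at a 1.5-fold minimum (5.31% of all genes). Without an array the count lower ranged from 2 to 3 (6.32% to 8.55% of all genes) and the count higher from 0 to 1 (4.48% to 7.32%). Among genes on all 4 arrays it was 4 lower, with Syn added, and 1 higher, para (12.0% and 9.4% of all genes), and para was also the 1 higher with centring (7.31%).

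The median of all genes was 0.0032 after centring, -0.0249 among genes on all 4 arrays and -0.0276 to -0.0171 with an array or extraction left out. The counts in the wider lists under alternatives were added after seeing the data. Under the 3 array-level models 19, 22 and 18 were lower (21.6%, 25.0% and 22.0%, against 18.9%, 21.0% and 20.0% of all genes). Under the same models 5, 6 and 6 were higher (5.68%, 6.82% and 7.32%, against 16.9%, 18.2% and 17.3%). Without an array, 4 to 8 were lower (4.71% to 10.7%, against 6.32% to 8.55%). Then 0 to 2 were higher (0.0% to 2.6%, against 4.48% to 7.32%). With 1 probe per gene, 10 were lower (11.4%, against 8.28%) and 2 higher (2.27%, against 6.48%). With centring, 8 were lower (9.09%, against 7.78%) and 2 higher (2.27%, against 7.31%).

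Signs near 0 turned. With centring nSyb was 0.0222, brp 0.0152 and ChAT 0.0124. With an array or extraction left out nSyb ranged from -0.1366 to 0.1328, brp from -0.0703 to 0.0537, ChAT from -0.0281 to 0.0059 and VAChT from -0.0285 to 0.0448. The cause was not tested.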
